A study of Mus musculus with 20 samples.

Results

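The comparison described here set oxalate mice given alkali therapy against control mice given neither oxalate nor alkali. It lists the transcripts that differed from the healthy untreated state in oxalate mice on alkali. The groups differ in both oxalate and alkali, and this contrast cannot tell the effects of these apart. It used 10 of the 20 libraries of the series, 5 labelled oxalate with alkali (named below as treated 2, 5, 8, 30 and 33, after their titles) and 5 labelled control and untreated (control 9, 13, 19, 26 and 35). All expressed genes were its subject, 15430 of the 25700 genes in the deposited count tables. The remaining groups, 5 untreated oxalate libraries and 5 libraries of control mice given alkali, served for values set side by side. The series describes the alkali as a bicarbonate supplement and the disease as a nephropathy caused by crystals. The labels name neither tissue, strain, sex, age, dose nor time of sampling, and they do not explain the word "late" that the names of both alkali groups carry. Nothing in them ties each library to an animal of its own, so the spread behind every p-value is that of libraries and may be technical.

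Calcium oxalate forms crystals in the lumen of kidney tubules, where they obstruct flow and injure the epithelium. The injured proximal tubule, the segment that reclaims most filtered solute and that makes ammonium and glucose from glutamine, loses its transporters and metabolic enzymes and switches on injury genes, while monocytes, macrophages and lymphocytes enter the interstitium and fibroblasts lay down matrix. Bicarbonate lowers the acid that the kidney must excrete as ammonium.

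The labels were checked against kidney genes, which were abundant in all 10 libraries. Umod, the urinary glycoprotein of the thick ascending limb, read 2954, 2832, 3063, 1923 and 2339 CPM in controls 9, 13, 19, 26 and 35 and 3039.5, 2825, 2880.3, 2158 and 2650.2 CPM in treated libraries 2, 5, 8, 30 and 33, the order used for all values below. CPM (counts relative to the library total) were scaled by the trimmed mean of M-values (TMM), which assumes that most genes do not change. Total counts ran from 25547840 to 39550689 per library. Ddx3y, a gene of the Y chromosome, was counted in all 20 libraries (1416 to 3055 counts). Adipose genes stood high in 1 library of each group, treated 33 and control 26: the summed level of the adipose and adrenal marker genes was 337 CPM and 521 CPM there, against medians of 1.95 CPM in treated and 2.46 CPM in control libraries. These libraries also had the highest summed level of urothelial markers, 80.0 CPM and 50.1 CPM, against medians of 15.0 CPM and 12.6 CPM. The counts of both marker lists without each of these libraries are given below, and their part in the other results was not tested.

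After alkali, oxalate kidneys differed from healthy untreated kidneys in a large share of the transcriptome. By edgeR's quasi-likelihood test at a Benjamini-Hochberg adjusted p under 0.05, 3802 genes were higher (24.6% of those tested) and 2849 were lower (18.5%). These 2 shares are the background for each count of list members called against untreated controls below. The rises were the larger changes: 1728 genes (11.2%) were called at least 2-fold higher and 130 (0.843%) at least 2-fold lower. In 1754 genes (11.4%) all 5 treated libraries lay above all 5 controls, and in 913 (5.92%) all lay below. The median log2 fold change of all tested genes was 0.03. With plain total-count scaling that median moved by 0.246 to 0.27 and the calls became 6679 higher and 1048 lower, so that 86.44% of called genes were higher, against 57.16% with TMM scaling. Tested against a minimum change of 1.5-fold, 1201 genes were higher and 59 lower. Fitted on the 10 compared libraries alone, 2949 of 14818 tested genes were higher and 2493 lower.

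Treated and untreated oxalate libraries differed in a smaller number of genes. Treated oxalate libraries differed from untreated oxalate libraries in 271 genes that were higher (1.76%) and 359 that were lower (2.33%). Fitted on those 10 libraries alone, the counts were 15 and 14. With single libraries left out, the counts ran from 93 to 442 and from 92 to 718. Calls of single genes against untreated oxalate, given below, come from the fit of all 20 libraries and were not checked under these alternatives. In control mice, alkali gave 0 genes higher (0%) and 0 lower (0%) by edgeR's test, 3 higher by DESeq2 and 0 by limma's voom. At an unadjusted p under 0.05, edgeR's test gave 389 genes, fewer than the share of 0.05 that chance alone would give. That number was 742 in the fit of the 10 control libraries and 1053 with limma's voom. The comparisons share libraries, so their values are set side by side below and not correlated.

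The 5 treated libraries were spread from near the controls to far from them. On the leading principal component, which held 61.9% of the variance of the 10 libraries, the controls lay between -58.1 and -27.2 and treated 2 at -10.6, with treated 30 at 31.9, treated 5 at 54.0, treated 8 at 61.8 and treated 33 at 80.6. On the next component (11.5% of the variance) treated 33 lay at -32.6 and control 26 at -43.8. The other treated libraries lay between 7.1 and 24.2 and the other controls between -12.6 and 16.1. Treated 33 and control 26 are the libraries with high adipose and urothelial markers, and a link was not tested. Gene lists of known function also placed treated 2 and treated 33 at the ends of the treated libraries. Of 11 lists of immune, matrix and tubular injury genes, treated 33 had the highest mean level in all 11 and treated 2 the lowest in 10. Of 9 lists of proximal tubule, transporter and metabolic genes, treated 2 had the highest mean level in 8 and treated 33 the lowest in 7. Some lists share members, so these counts over lists are not independent. Without treated 2 the calls were 4390 higher and 3691 lower, with 347 at least 2-fold lower. Without treated 33 they were 3141 higher and 2106 lower.

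**Figure D1:**
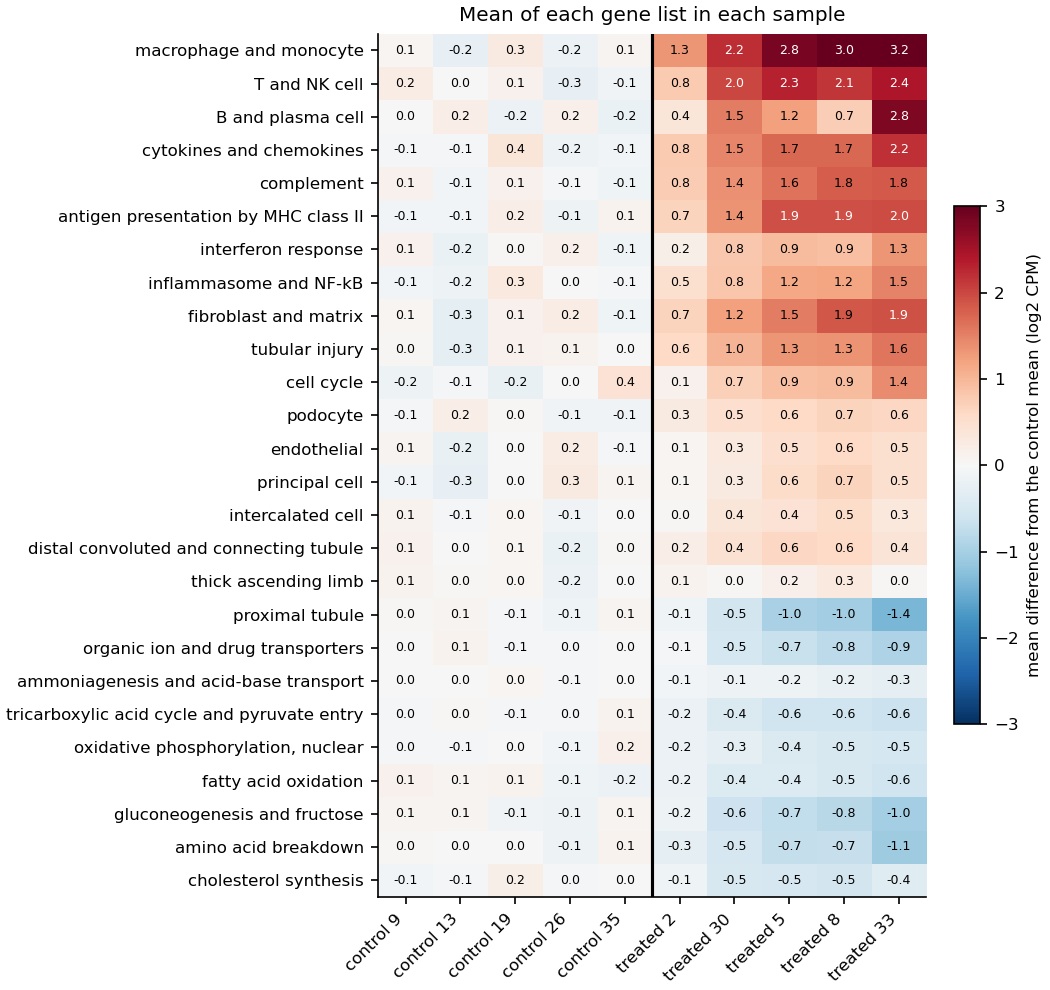
Each cell gives the mean, over the tested members of a gene list, of a sample's log2 CPM minus the mean of the 5 controls, for 5 control and 5 treated oxalate samples, the latter ordered by the leading principal component. Treated 2 is the nearest to the controls for most lists and treated 33 the farthest, with macrophage genes at 1.3 and 3.2 log2 units.

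Among genes with a mean level of at least 1 log2 CPM and separate groups, the 12 largest rises included Gpnmb and Trem2, both known from macrophages, and the metalloproteinases Mmp7 and Mmp12. Gpnmb, a membrane glycoprotein of lipid-laden and phagocytic macrophages, read 0.377, 0.169, 0.249, 0.342 and 0.122 CPM in the controls and 9.92, 111, 175, 40.6 and 144 CPM in the treated libraries (log2 fold change 8.53 ± 0.93 (SE), adjusted p = 1.6e-05). Treated 2 was lowest, and still above every control. Mmp7, the epithelial metalloproteinase matrilysin, had 4 counts summed over the 5 controls and 925 over the treated libraries, a ratio of 175 (95% interval 68.2 to 644) that covers counting error only. Arhgap36, which acts on protein kinase A and Hedgehog signalling, had 3 counts in the controls and 1208 in the treated libraries, a ratio of 305 (95% interval 104 to 1480.0). Both were nearly silent in health, and the smallest treated value (treated 2) was 0.999 CPM for Mmp7 and 1.48 CPM for Arhgap36. Gabrp, a GABA receptor subunit of epithelia, read 2.62, 6.33, 7.07, 4.42 and 14 CPM in treated libraries and at most 0.122 CPM in controls. Others of the 12 largest such rises were Lyz1 (log2 fold change 6.23), Clec4d (5.41), Fcrls (5.32), Mmp12 (5.13), Ear2 (4.85), Il1rn (4.76), Stac2 (4.75) and Trem2 (4.71). Lyz1 and Lyz2 are near-identical lysozyme genes, and Ear2 has close paralogs, so the split of their reads is uncertain.

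The calls with the smallest p were not all the largest changes. Aldh1a2, the enzyme that makes retinoic acid, read 2.79, 2.12, 3.35, 2.43 and 2.47 CPM in controls and 9.75, 23.1, 30.7, 21.6 and 27 CPM in treated libraries (log2 fold change 3.09 ± 0.27 (SE), adjusted p = 4.6e-06). Aoc1, the diamine oxidase of tubular epithelium, read 3.43, 4.23, 3.64, 4.55 and 3.98 CPM against 15.3, 36.3, 37.5, 20.8 and 55.9 CPM (log2 fold change 3.06 ± 0.31 (SE), adjusted p = 7.8e-06). Ccl17, a chemokine that attracts T cells, had 8 counts summed over the controls and 325 over the treated libraries, a ratio of 30.8 (95% interval 15.4 to 71.9). In untreated oxalate libraries the mean of Aldh1a2 was 28.6 ± 10.1 CPM (SD, n = 5) and that of Arhgap36 6.8 ± 2.41 CPM (SD, n = 5). For neither gene did treated and untreated oxalate libraries differ past the threshold: the log2 difference was -0.35 for Aldh1a2 (95% interval -0.86 to 0.15) and 0.02 for Arhgap36 (-0.82 to 0.86).

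Tubular injury genes were higher on alkali than in health. Of 30 tested, 19 were higher and 0 lower (1 without treated 2). In 13 all treated libraries lay above all controls, as in 11.4% of all tested genes. The median log2 fold change of the 30 was 1.03, against 0.03 over all genes. Havcr1, the injury molecule KIM-1 of the proximal tubule, read 2.79, 2.37, 1.92, 1.51 and 4.66 CPM in controls and 11.1, 11.1, 14.7, 14.1 and 17.8 CPM in treated libraries (log2 fold change 2.38 ± 0.45 (SE), adjusted p = 0.000642). Its groups did not overlap, and the treated libraries were close to each other. Lcn2, the lipocalin NGAL released by injured tubules and neutrophils, read 3.24, 1.4, 1.78, 2.67 and 2.27 CPM and 12.2, 44.4, 49.5, 28.5 and 71.8 CPM (log2 fold change 4.17 ± 0.43 (SE), adjusted p = 9.6e-06). Here the treated libraries spanned from 12.2 CPM in treated 2 to 71.8 CPM in treated 33. Vcam1, an adhesion molecule that marks tubule cells which fail to repair, read 7.8, 10.7, 14.1, 7.02 and 7.63 CPM and 32.7, 61.6, 55.6, 37.1 and 77.5 CPM (log2 fold change 2.48 ± 0.27 (SE), adjusted p = 1.1e-05). Spp1, the crystal-binding phosphoprotein osteopontin, read 545, 591, 613, 490.4 and 644 CPM and 1078, 2242, 2359, 1628 and 3196 CPM (log2 fold change 1.86 ± 0.22 (SE), adjusted p = 1.6e-05). Clu, the secreted chaperone clusterin, rose by 1.87 on the log2 scale, Timp1, an inhibitor of metalloproteinases, by 3.65, and Krt20, a keratin of injured tubules, by 2.25. Sox9, a transcription factor switched on during tubule repair, rose by 1.74 and Cdkn1a, the cell cycle inhibitor p21, by 0.96.

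Against untreated oxalate kidneys, 9 of the 30 injury genes were lower with alkali and 0 higher, where 2.33% and 1.76% of all tested genes were. Havcr1 averaged 52.9 ± 47.4 CPM (SD, n = 5) in untreated oxalate libraries and was lower with alkali (log2 difference -1.95 ± 0.41 (SE), adjusted p = 0.014), as were Vcam1 (log2 difference -1.42 ± 0.25 (SE), adjusted p = 0.00522) and Sox9 (log2 difference -2.02 ± 0.41 (SE), adjusted p = 0.011). Lcn2 averaged 62.9 ± 25.8 CPM (SD, n = 5), and its difference did not pass (log2 difference -0.61 ± 0.36 (SE), adjusted p = 0.352). Clu did not pass either (log2 difference 0.05 ± 0.21 (SE), adjusted p = 0.93).

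**Figure D2:**
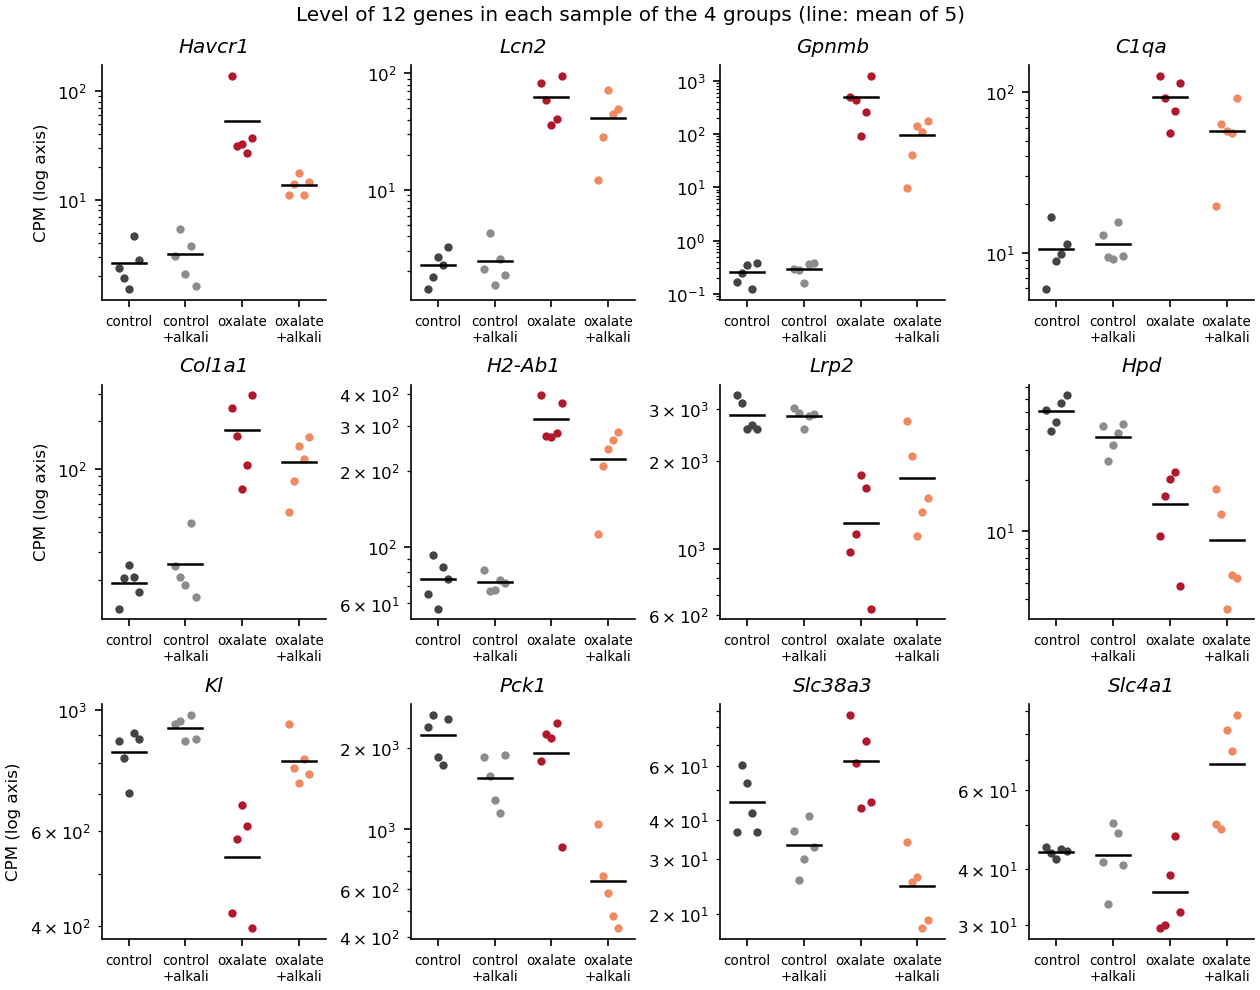
Levels (CPM, log axis) of 12 genes in each of the 5 samples of the 4 groups, with the group mean as a line. Havcr1, Lcn2, Gpnmb, C1qa and H2-Ab1 of treated oxalate samples sit above all controls, Kl lies among the untreated controls, Pck1 and Slc38a3 lie below them and Slc4a1 above them.

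Macrophage and monocyte genes were the list with the highest median. Of 28 tested, 26 were higher and 0 lower, with a median log2 fold change of 2.37. In 25 all treated libraries lay above all controls, as in 11.4% of all tested genes. Lyz2, the lysozyme of myeloid cells, read 21.5, 18.6, 27.3, 15.6 and 21 CPM in controls and 96.8, 385, 387, 209 and 491 CPM in treated libraries (log2 fold change 3.92 ± 0.42 (SE), adjusted p = 1.1e-05). C1qa, a chain of the complement starter C1q made by resident macrophages, read 11.4, 5.93, 16.6, 8.9 and 9.9 CPM and 19.5, 56, 91.4, 63.3 and 57.1 CPM (log2 fold change 2.44 ± 0.33 (SE), adjusted p = 6.3e-05). Cd68, a lysosomal glycoprotein of phagocytes, read 2.79, 1.9, 3.49, 3.11 and 4.1 CPM and 6.68, 32.7, 48.3, 18.7 and 35.1 CPM (log2 fold change 3.20 ± 0.50 (SE), adjusted p = 0.00017). For these genes treated 2 was the lowest of the treated libraries and above all controls. Trem2, a lipid receptor of macrophages that take up debris, read 0.188, 0.0847, 0.713, 0.24 and 0.325 CPM and 1.89, 10.5, 13.2, 4.8 and 11.4 CPM (log2 fold change 4.71 ± 0.60 (SE), adjusted p = 4.2e-05). Mmp12, the macrophage elastase, read 1.32, 1.23, 3.78, 1.37 and 2.76 CPM and 10.6, 87.4, 121, 36.9 and 111 CPM (log2 fold change 5.13 ± 0.73 (SE), adjusted p = 1.0e-04). Fcgr1, the high-affinity receptor for IgG, rose by 2.13, Cd14, the co-receptor for bacterial lipopolysaccharide, by 1.91, and Aif1, a cytoskeletal protein of macrophages, by 2.08. The members that did not pass were Csf1r, the receptor that macrophages need to survive (0.31, 95% interval -0.05 to 0.67), and the scavenger receptor Cd163 (0.92, -0.14 to 1.98). Csf1r was called higher in the fit of the 10 libraries alone (0.29, adjusted p = 0.0218) and with total-count scaling (0.56, adjusted p = 0.0369). In bulk RNA, more cells of a type and more RNA per cell cannot be told apart. Compared with untreated oxalate libraries, 11 of the 28 genes were lower with alkali (2.33% of all tested genes were) and the median difference was -1.10. Gpnmb averaged 503 ± 439 CPM (SD, n = 5) there (log2 difference -2.39 ± 0.60 (SE), adjusted p = 0.0332).

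Lymphocyte genes rose as well. Of 19 tested genes of T and NK cells, 17 were higher (89.5%, against 24.6% of all tested genes, median 2.06). Cd3e, a chain of the T cell receptor complex, read 0.641, 0.423, 0.499, 0.24 and 0.568 CPM and 0.723, 2.91, 2.55, 2.47 and 3.5 CPM (log2 fold change 2.36 ± 0.34 (SE), adjusted p = 9.8e-05). Cd4, the co-receptor of helper T cells, read 0.98, 0.55, 0.606, 0.548 and 0.811 CPM and 0.999, 4.89, 5.89, 5.5 and 5.8 CPM (log2 fold change 2.72 ± 0.38 (SE), adjusted p = 7.3e-05). For Cd4, treated 2 stood apart from the other 4 treated libraries, which lay between 4.89 and 5.89 CPM, and was just above the highest control. Foxp3, the transcription factor of regulatory T cells, had 5 counts summed over the controls and 307 over the treated libraries, a ratio of 46.5 (95% interval 19.7 to 144); its exons overlap those of Ccdc22 and Ppp1r3f on the other strand. Il7r, the interleukin 7 receptor of T cells and innate lymphocytes, rose by 3.99. Of 12 tested B and plasma cell genes, 7 were higher (58.3%, against 24.6% of all tested genes, median 1.32). Among them were Cd22, a B cell inhibitory receptor (2.83), and the B cell coactivator Pou2af1 (3.15). The immunoglobulin chains were uneven. Ighm, the heavy chain of IgM, read 5.73, 6.94, 6.7, 6.33 and 6.29 CPM in controls and 8.44, 24.6, 21.1, 103 and 469 CPM in treated libraries (log2 fold change 4.29 ± 0.89 (SE), adjusted p = 0.00144). Without treated 33 its log2 fold change was 2.62 (adjusted p = 0.00581). Igkc, the kappa light chain, read 17.7, 18.6, 10.7, 9.96 and 17.6 CPM and 37.8, 42.4, 49.7, 111 and 274 CPM (log2 fold change 2.79 ± 0.53 (SE), adjusted p = 0.000758).

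Neutrophil markers were sparse. Of the 13 listed, 5 reached the tested range, and 3 (Camp, Mpo and Ngp) had no count in either group. The 2 that rose were Csf3r, the receptor for granulocyte colony-stimulating factor (2.31), and Mmp9, a gelatinase (1.47). S100a8, the neutrophil calprotectin chain, stayed below 1 CPM in every library, with an interval of -2.09 to 1.48 for its log2 fold change.

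Chemokine, inflammasome, complement and interferon genes were higher as well. Of 30 cytokine and chemokine genes, 24 were higher (80.0%, against 24.6% of all tested genes, median 1.75). The count of lower genes was 0, and 1 without control 19, treated 2 or treated 30. Ccl9, a macrophage chemokine, read 1.54, 1.31, 2.64, 0.582 and 2.11 CPM and 5.65, 18.1, 16.5, 9.22 and 19.6 CPM (log2 fold change 3.08 ± 0.43 (SE), adjusted p = 7.2e-05). Ccl6, of the same family, rose by 2.72, and Cxcl16, a membrane-bound chemokine, by 1.08. Ccl2, the chief monocyte attractant, read 0.603, 0.677, 3.78, 0.376 and 0.649 CPM in controls and 2.62, 4.62, 5.14, 4.24 and 5.7 CPM in treated libraries (log2 fold change 1.86 ± 0.53 (SE), adjusted p = 0.00899). Control 19 lay above treated 2, and without it the log2 fold change was 2.96 (adjusted p = 0.000285). Cxcl1, a neutrophil attractant, was not called: it read 1.13, 3.77, 3.1, 1.85 and 0.406 CPM and 1.52, 2.36, 2.01, 1.67 and 2.29 CPM (log2 fold change -0.06, 95% interval -1.38 to 1.27). Its mean in untreated oxalate libraries was 16.5 ± 16.9 CPM (SD, n = 5), and it was lower with alkali (log2 difference -3.07 ± 0.64 (SE), adjusted p = 0.0129).

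Of 26 inflammasome and NF-kB genes, 22 were higher (84.6%, against 24.6% of all tested genes, median 1.17). The bacterial sensor Nlrc4 (-0.78) was the 1 that was lower. Nlrp3, the sensor that crystals activate in macrophages, read 0.188, 0.381, 0.535, 0.274 and 0.243 CPM and 0.861, 1.17, 2.11, 1.16 and 1.7 CPM (log2 fold change 2.10 ± 0.32 (SE), adjusted p = 0.000142). All 5 treated libraries lay above all controls. Casp4, the caspase of the non-canonical inflammasome, rose by 2.13 and Nfkbie, an inhibitor that NF-kB itself induces, by 1.38. Il1rn, the antagonist of the interleukin 1 receptor, read 0.226, 0.0423, 0.107, 0.205 and 0.0406 CPM and 0.758, 4.83, 4.61, 2.68 and 4.94 CPM (log2 fold change 4.76 ± 0.64 (SE), adjusted p = 5.0e-05). Socs3, a feedback inhibitor induced by interleukin 6 family cytokines, read 1.88, 2.33, 2.82, 2.22 and 1.54 CPM and 5.96, 14.9, 21.2, 13.5 and 18.8 CPM (log2 fold change 2.78 ± 0.30 (SE), adjusted p = 1.1e-05).

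Of 19 complement genes, 15 were higher (79%, against 24.6% of all tested genes) and 3 lower (15.8%, against 18.5%), with a median of 1.67. C3, the central component, read 18.9, 17.1, 19.5, 54.4 and 15.6 CPM in controls, where control 26 was highest, and 46.3, 121, 143, 85 and 193 CPM in treated libraries (log2 fold change 2.23 ± 0.42 (SE), adjusted p = 0.000626). Treated 2 lay below control 26. C7, a member of the membrane attack complex, rose by 2.34 and Cfi, the protease that inactivates C3b, by 1.67. The genes that fell were factor B, Cfb (-0.61), the membrane regulator Cd55 (-0.43, a call lost with total-count scaling) and C8g (-0.80). Of 25 interferon response genes, 22 were higher (88.0%, against 24.6% of all tested genes) and 0 lower, with a smaller median of 0.76. Ifit1, an antiviral RNA-binding protein, read 4.11, 3.22, 4.95, 4.55 and 3.57 CPM and 5.61, 8.07, 7.93, 8.99 and 11.8 CPM (log2 fold change 1.05 ± 0.19 (SE), adjusted p = 0.000388). Mx1, an antiviral GTPase, rose by 2.10, Usp18, which removes ISG15 from proteins, by 1.04, and Irf8, a myeloid transcription factor, by 1.16.

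All 13 listed genes of antigen presentation by MHC class II were higher, with a median log2 fold change of 1.57 and a range from 1.17 to 3.27. MHC class II molecules show peptides to helper T cells, and dendritic cells, macrophages and B cells carry them. H2-Ab1, a beta chain, read 75.1, 65.2, 93.4, 57.2 and 83.2 CPM in controls and 113, 263, 284, 208 and 243 CPM in treated libraries (log2 fold change 1.57 ± 0.19 (SE), adjusted p = 2.4e-05). H2-Eb1, another beta chain, read 76.1, 68.4, 90.3, 60.6 and 85.4 CPM and 119.5, 319.6, 298, 195 and 324 CPM (log2 fold change 1.72 ± 0.22 (SE), adjusted p = 4.2e-05). H2-DMb1, a chain of the peptide loader H2-DM, read 11.6, 12.4, 14.4, 9.69 and 11.8 CPM and 16.2, 27.7, 35.4, 28.6 and 26.8 CPM (log2 fold change 1.17 ± 0.15 (SE), adjusted p = 4.8e-05). Every treated library lay above every control for these genes, with treated 2 the lowest. Ctss, the cathepsin that trims the invariant chain, rose most, by 3.27. Against untreated oxalate libraries, 1 of the 13 genes (Ctss) passed as lower with alkali (log2 difference -1.58 ± 0.39 (SE), adjusted p = 0.0289). Of all tested genes, 2.33% were lower in that comparison.

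The sequence before their starts is shown because all 13 rose. MHC class II promoters are known to carry an X box and a Y box, the latter with the CCAAT core bound by NF-Y. RefSeq promoter entries (GRCm38.p6) existed for 9 of the 13 listed genes, in 10 windows. The letters GATTGG, read on both strands, occurred in the 250 bases before the start in 6 of the 10 windows and in 14.5% of all 32544 windows of that length. The match is a description of the letters, not evidence of binding. The windows of 4 class II genes are given 5′ to 3′ in the direction of the gene with the matches in capitals: H2-Aa at chr17:34287824-34288073 (minus strand), H2-Eb1 at chr17:34305617-34305866 (plus strand), H2-DMb1 at chr17:34152941-34153190 (plus strand) and H2-Ob at chr17:34238655-34238904 (plus strand).
H2-Aa: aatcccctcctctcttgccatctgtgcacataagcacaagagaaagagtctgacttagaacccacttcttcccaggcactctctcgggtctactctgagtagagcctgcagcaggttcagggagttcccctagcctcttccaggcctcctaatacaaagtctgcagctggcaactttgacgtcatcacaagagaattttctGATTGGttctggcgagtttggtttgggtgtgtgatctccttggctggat
H2-Eb1: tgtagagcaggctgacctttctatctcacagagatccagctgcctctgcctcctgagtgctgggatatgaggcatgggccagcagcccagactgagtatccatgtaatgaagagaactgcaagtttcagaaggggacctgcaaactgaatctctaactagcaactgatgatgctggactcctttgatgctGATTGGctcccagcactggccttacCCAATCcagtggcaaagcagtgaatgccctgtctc
H2-DMb1: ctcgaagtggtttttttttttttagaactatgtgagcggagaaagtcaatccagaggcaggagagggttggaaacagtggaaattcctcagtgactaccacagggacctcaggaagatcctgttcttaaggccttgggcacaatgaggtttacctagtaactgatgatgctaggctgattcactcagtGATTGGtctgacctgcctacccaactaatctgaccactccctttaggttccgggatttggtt
H2-Ob: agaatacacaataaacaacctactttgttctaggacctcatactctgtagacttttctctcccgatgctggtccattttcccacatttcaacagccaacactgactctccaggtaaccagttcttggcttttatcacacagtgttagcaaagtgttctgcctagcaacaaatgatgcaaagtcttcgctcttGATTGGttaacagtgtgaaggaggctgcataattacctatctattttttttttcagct
The first match began 49 bases before the start of H2-Aa, 60 before that of H2-Eb1, 62 before that of H2-DMb1 and 58 before that of H2-Ob, and H2-Eb1 had a further one at 35. Not shown are the 2 windows of H2-DMa, 1 with 0 matches and 1 with a match 199 bases before the start. Also not shown are H2-Oa, with 1 match, and Ctss, Flt3 and Cd80, with 0 matches. H2-Aa, an alpha chain, rose by 1.82 and H2-Ob, a chain of the loading regulator H2-O, by 1.27.

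Most matrix and fibroblast genes were higher. Of 37 tested, 31 were higher and 0 lower (1 without control 19 or control 26), with a median log2 fold change of 1.53. In 28 all treated libraries lay above all controls and in 1 all below, against 11.4% and 5.92% of all tested genes. Col1a1, a chain of fibrillar collagen, read 16.7, 13.2, 20.6, 24.9 and 21 CPM in controls and 53.6, 116, 159, 84.7 and 141 CPM in treated libraries (log2 fold change 2.52 ± 0.37 (SE), adjusted p = 0.000119). Fn1, fibronectin, read 26.1, 21.4, 30.7, 20 and 27.3 CPM and 65.1, 145, 179.7, 113 and 196 CPM (log2 fold change 2.48 ± 0.32 (SE), adjusted p = 4.8e-05). Mmp2, a gelatinase of fibroblasts, read 3.84, 4.28, 3.99, 3.97 and 3.45 CPM and 8.96, 26.2, 41.3, 20 and 33.1 CPM (log2 fold change 2.73 ± 0.32 (SE), adjusted p = 1.8e-05). The groups did not overlap for these genes, and treated 2 was the lowest treated library. Tgfbi, an extracellular protein induced by TGF-beta, rose by 1.89, and Acta2, the smooth muscle actin of myofibroblasts, by 0.86. Against untreated oxalate libraries, 3 of the 37 genes were lower with alkali, where 2.33% of all tested genes were. Col1a1 did not pass in that comparison (log2 difference -0.67 ± 0.35 (SE), adjusted p = 0.292).

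Proliferation genes were higher and growth arrest genes rose in part. Of 26 cell cycle genes, 21 were higher (80.8%, against 24.6% of all tested genes) and 1 lower (3.8%, against 18.5%), with a median of 0.98. The lower gene was thymidylate synthase Tyms (-0.25). Its call was lost with total-count scaling, in the fit of the 10 libraries and on leaving out any single library other than control 9 or treated 30. In those 8 leave-outs its log2 fold change was -0.26 to -0.21. Mki67, the proliferation antigen Ki-67, read 3.47, 4.91, 4.1, 5.61 and 8.88 CPM and 6.92, 12.3, 15.6, 15 and 25.6 CPM (log2 fold change 1.48 ± 0.32 (SE), adjusted p = 0.00161). Treated 2 lay below control 35. Top2a, the topoisomerase of dividing cells, rose by 1.51, and the replication helicase subunit Mcm3 by 1.18. Of 18 growth arrest and p53 target genes, 8 (44.4%) were higher, against 24.6% of all tested genes, and 0 lower (median 0.34). Eda2r, a p53-induced receptor, rose by 1.68, Gadd45b by 1.12, the death gene Bbc3 by 1.06 and the stress gene Sesn1 by 0.45.

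**Figure D3:**
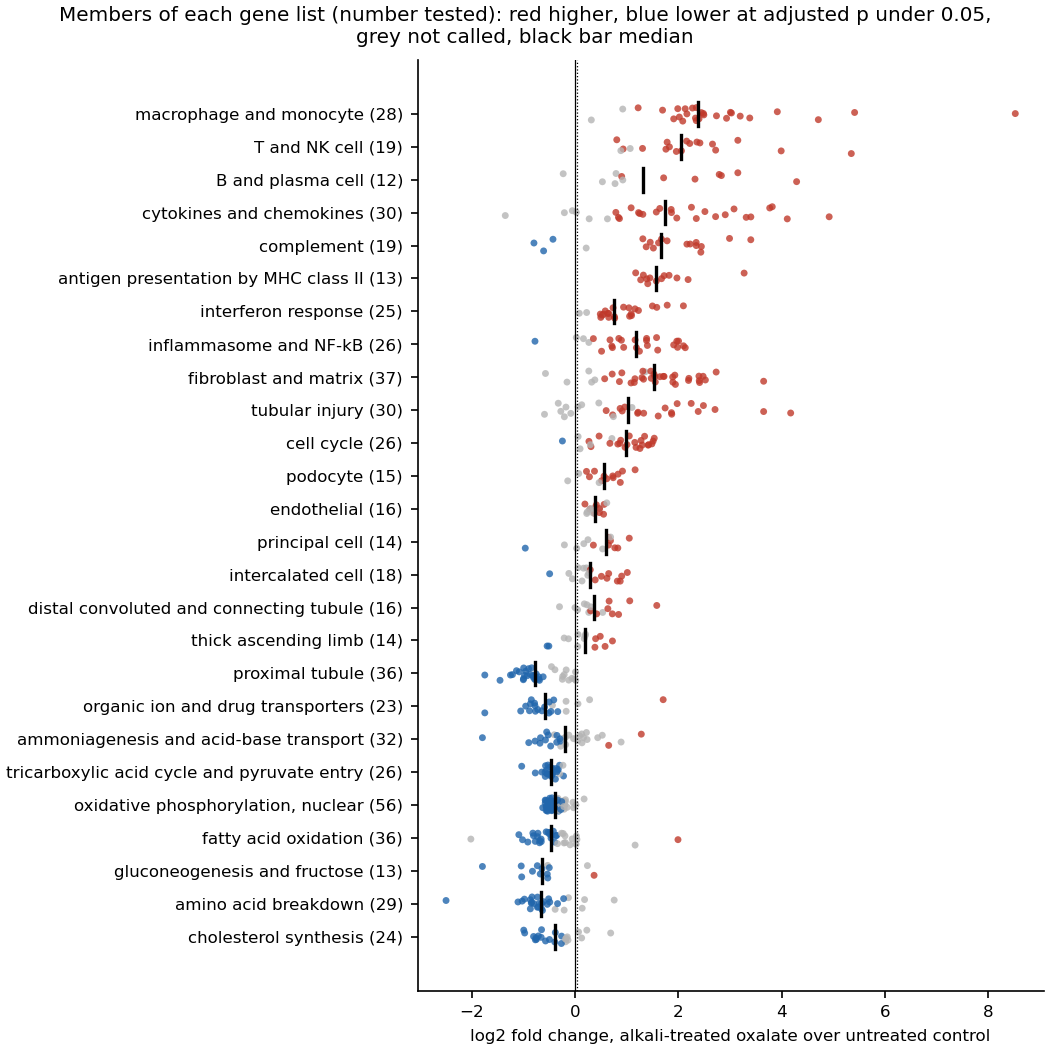
Each row is a gene list with its number of tested genes; points are members at their log2 fold change in alkali-treated oxalate over untreated control samples, and black bars are medians. Medians of immune, matrix and injury lists lie to the right, and those of proximal tubule, organic ion and metabolic lists to the left, of the median of all genes (dotted, 0.03).

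Many proximal tubule genes were lower. Of 36 tested, 25 were lower (69.4%, against 18.5% of all tested genes) and 0 higher, with a median log2 fold change of -0.79. With total-count scaling 24 were lower, with a median of -0.57. Kap, an androgen-driven protein of the proximal tubule, read 36626, 38216, 32689.7, 34304 and 39534 CPM in controls and 27398, 16401, 11431, 21763 and 13295 CPM in treated libraries (log2 fold change -1.01 ± 0.24 (SE), adjusted p = 0.00296). Slc13a3, a carrier of dicarboxylates, read 910.2, 911, 916, 774 and 894 CPM and 549, 381, 305, 426 and 185 CPM (log2 fold change -1.25 ± 0.23 (SE), adjusted p = 0.000563). Acsm1, a mitochondrial acyl-CoA synthetase, read 240.4, 244, 225, 222 and 271 CPM and 153, 84.4, 79.1, 136 and 64.3 CPM (log2 fold change -1.22 ± 0.23 (SE), adjusted p = 0.00072). In each of these genes the groups were separate, with treated 33 or treated 8 lowest. Aqp1, the water channel, fell by 0.79 on the log2 scale. Lrp2, the endocytic receptor megalin, read 2571, 3344, 3156, 2561 and 2654 CPM and 2729.6, 1341, 1494, 2074 and 1108 CPM (log2 fold change -0.71 ± 0.24 (SE), adjusted p = 0.0247). Treated 2 overlapped the controls, and the call was lost when treated 33 (log2 fold change -0.58, adjusted p = 0.071), treated 5, treated 8 or control 13 was left out. Slc34a1, the sodium-phosphate carrier NaPi-IIa, read 7419, 6507, 6618, 6816 and 7423 CPM and 5878, 3943, 4044, 5044 and 2375 CPM (log2 fold change -0.71 ± 0.23 (SE), adjusted p = 0.017), with every treated library below every control; its exons overlap Pfn3 on the other strand.

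Not every proximal gene was lower. Slc5a2, the glucose carrier SGLT2 of the early segment, read 490.0, 422, 502, 443 and 506 CPM and 491, 479, 512, 529.7 and 364 CPM (log2 fold change 0.01, 95% interval -0.38 to 0.40). Hnf4a, a transcription factor of proximal cells, read 931, 1076, 963, 852 and 929 CPM and 854, 676, 678, 865 and 379.5 CPM (log2 fold change -0.46 ± 0.22 (SE), adjusted p = 0.0885), with only treated 33 below 600 CPM; DESeq2 (adjusted p = 0.0487), limma's voom and the fit without treated 2 called it lower.

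Carriers for organic ions and drugs were lower in 17 of 23 cases and higher in 1, 2 without treated 2 (median -0.59). Slc22a4, a carrier of ergothioneine and carnitine, read 57.7, 70.6, 54.5, 72.8 and 62 CPM and 60.8, 27.7, 25.3, 35.5 and 24.6 CPM (log2 fold change -0.87 ± 0.20 (SE), adjusted p = 0.00242). Treated 2 lay among the controls. Slco3a1, an organic anion carrier, fell by 0.89 and Slc22a18 by 0.79. The 1 that rose was Abcc3, a basolateral export pump for conjugates (3.13, 1.61, 2.46, 4.45 and 1.3 CPM in controls, 3.58, 11.3, 9.12, 4.37 and 14.1 CPM in treated libraries, log2 fold change 1.70). Genes known as male-biased in mouse kidney were lower in 10 of 11 cases (median -1.02), and 6 of 11 were called without treated 5, 8 or 33. They included Slc7a13, an amino acid carrier of the late proximal tubule (-1.14), Cyp2e1, a cytochrome P450 (-1.46), and Slc22a30 (-1.09). Of 11 female-biased genes, 4 were also lower (Acsm1, Slc22a19, Fmo5 and Aass) and 1, Abcc3, was higher. Fmo5 was not called without treated 8 (-0.63, adjusted p = 0.0529) or treated 33 (-0.65, adjusted p = 0.0503).

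By the same limits, the 12 largest falls included Hpd, Pck1 and genes of cytochrome P450 and carboxylesterase enzymes. Hpd, which breaks down a product of tyrosine, read 62.8, 51.4, 38.6, 43.8 and 56.5 CPM in controls and 17.7, 5.57, 5.34, 12.7 and 3.5 CPM in treated libraries (log2 fold change -2.50 ± 0.40 (SE), adjusted p = 0.000194). Etnppl, which cleaves phosphoethanolamine, read 23.1, 31.4, 14.9, 23.5 and 27.9 CPM and 11, 3.15, 3.99, 5.73 and 3.18 CPM (log2 fold change -2.17 ± 0.32 (SE), adjusted p = 0.000103). Mogat2, which acylates monoacylglycerol, read 11.8, 15.2, 16.6, 17.9 and 17 CPM and 6.85, 3.99, 3.34, 6.97 and 2.75 CPM (log2 fold change -1.72 ± 0.29 (SE), adjusted p = 0.000305). The groups were separate in all 12, and treated 2 or treated 30 was nearest the controls in these 3. The others were Nat8f5 (-2.20), whose exons overlap those of Nat8f6, Pck1 (-1.80, below), the asparaginase Aspg (-1.55), Cyp2a5 (-1.55), Ceacam2 (-1.55), the carboxylesterases Ces2b (-1.52) and Ces2c (-1.47), Cyp2d12 (-1.49) and Cyp2e1 (-1.46). Cyp2a5, Cyp2d12 and the Ces2 genes have close paralogs, so the split of their reads is uncertain. Mogat2 averaged 18.9 ± 8.0 CPM (SD, n = 5) in untreated oxalate libraries and was lower with alkali (log2 difference -1.98 ± 0.29 (SE), adjusted p = 0.00247). Cyp2a5 likewise averaged 93 ± 41.3 CPM (SD, n = 5) there (log2 difference -1.58 ± 0.40 (SE), adjusted p = 0.0295). For Ces2b the difference did not pass (log2 difference -0.04 ± 0.32 (SE), adjusted p = 0.965).

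The 6 smallest p-values on the lower side belonged to Hebp1, Map3k7cl, Slc6a20a, Pck1, Etnppl and Lamtor5. Hebp1, a heme-binding protein, read 80.9, 80.6, 77.9, 84.5 and 89 CPM in controls and 52.7, 41.2, 32.8, 40.5 and 35.9 CPM in treated libraries (log2 fold change -1.02 ± 0.12 (SE), adjusted p = 2.4e-05); its exons overlap Fam234b on the other strand. Map3k7cl read 51.5, 56.6, 44.4, 39.5 and 46.4 CPM and 27.5, 21.5, 16.1, 17.9 and 13.9 CPM (log2 fold change -1.30 ± 0.17 (SE), adjusted p = 5.4e-05). Slc6a20a, a carrier of proline, fell by 0.72 and Lamtor5, a lysosomal scaffold of mTOR complex 1, by 0.64. Hebp1 averaged 63.5 ± 11.8 CPM (SD, n = 5) in untreated oxalate libraries and was lower with alkali (log2 difference -0.65 ± 0.12 (SE), adjusted p = 0.00804).

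Beyond the proximal tubule, epithelial genes tended to be higher. Of 16 distal convoluted and connecting tubule genes 8 were higher and 0 lower (14 higher with total-count scaling, 1 lower without treated 2), of 14 principal cell genes 7 higher and 1 lower, and of 18 intercalated cell genes 9 higher and 1 lower (15 higher with total-count scaling). In each of these lists 50.0% were higher, against 24.6% of all tested genes. Trpv5, the apical calcium channel of the distal tubule, read 19.6, 18.9, 19, 16.5 and 21.5 CPM and 25.4, 52, 45.2, 31.4 and 44.5 CPM (log2 fold change 1.06 ± 0.15 (SE), adjusted p = 6.3e-05). Trpm6, the apical magnesium channel, read 32, 24.2, 18.7, 16.3 and 17.8 CPM and 33, 43.3, 40.6, 39.8 and 38.4 CPM (log2 fold change 0.84 ± 0.15 (SE), adjusted p = 0.000333). Calb1, the calcium buffer of the same cells, rose by 0.72. Slc12a3, the thiazide-sensitive carrier, did not pass (0.23, 95% interval -0.13 to 0.58). It was called higher with total-count scaling (0.47, adjusted p = 0.0196).

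Of the genes of principal cells, which reclaim sodium and water in the collecting duct, Scnn1b and Scnn1g, subunits of the epithelial sodium channel, rose by 0.83 and 0.77. Scnn1b read 65.7, 54, 51.7, 55.7 and 61.1 CPM and 61.6, 115, 147, 91.4 and 95.5 CPM (log2 fold change 0.83 ± 0.15 (SE), adjusted p = 0.000446). Hsd11b2, which shields the mineralocorticoid receptor from glucocorticoid, rose by 0.64 and the transcription factor Gata3 by 0.68. Aqp4, a basolateral water channel, read 23.5, 55.1, 33.2, 67.9 and 32.6 CPM and 30.1, 15.3, 13.8, 14 and 35.5 CPM (log2 fold change -0.97 ± 0.30 (SE), adjusted p = 0.0153). Its groups overlapped, and with total-count scaling the call was lost (-0.72, adjusted p = 0.0596). Aqp2, the vasopressin-regulated water channel, did not pass (0.53, 95% interval 0.05 to 1.01, adjusted p = 0.0659). It was called higher with limma's voom (0.62, adjusted p = 0.021), with total-count scaling (0.79, adjusted p = 0.012), without control 26 (0.63, adjusted p = 0.0412) and without treated 2 (0.67, adjusted p = 0.0143).

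Of 14 thick ascending limb genes, 5 were higher (among them Kcnj1, Cldn16, Cldn19 and Bsnd) and 2 lower, the growth factor Egf (-0.54, a call lost with total-count scaling, in the fit of the 10 libraries and on leaving out any single library other than control 26 or treated 2, with -0.58 to -0.42 in those 8 cases) and the sodium-pore claudin Cldn10 (-0.51). Cldn16, a claudin for magnesium and calcium, read 8.03, 8.0, 8.77, 7.12 and 7.46 CPM and 10.8, 12.8, 15.5, 11.7 and 14 CPM (log2 fold change 0.72 ± 0.13 (SE), adjusted p = 0.00052). Of the thick ascending limb genes, 35.7% were higher and 14.3% lower, against 24.6% and 18.5% of all tested genes. Umod, given above, was not called (0.05, 95% interval -0.24 to 0.34). Podocyte genes, from the cells that cover the glomerular capillaries, were higher in 12 of 15 cases and lower in 0 (median 0.56). Nphs1, the slit diaphragm protein nephrin, read 26, 29.8, 29.5, 22.1 and 24.8 CPM and 30.1, 41, 50.8, 44.2 and 35.7 CPM (log2 fold change 0.61 ± 0.11 (SE), adjusted p = 0.00043). Synpo, an actin regulator of foot processes, rose by 0.74, the phosphatase Ptpro by 0.73 and the phospholipase Plce1 by 0.87. Endothelial genes were higher in 9 of 16 cases (56.25%, against 24.6% of all tested genes, median 0.38). But this count ran from 4 to 13 as single libraries were left out. It was 4 without treated 5 or treated 8 and 5 without control 13 or control 35. Pecam1, the endothelial junction protein CD31, read 51.5, 44.7, 47, 53.8 and 52.6 CPM and 55.5, 79.1, 79, 66.7 and 84.9 CPM (log2 fold change 0.55 ± 0.11 (SE), adjusted p = 0.000691).

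Among acid-base genes, Pck1, Slc38a3 and Slc4a1 differed from both healthy and untreated oxalate kidneys. Of 32 genes of ammonia production and acid-base transport, 13 were lower (40.6%, against 18.5% of all tested genes) and 2 higher (6.25%, against 24.6%). The median of -0.21 turned to 0.04 with total-count scaling (8 lower, 11 higher). Without control 19 or treated 2, 4 were higher. Pck1, the cytosolic enzyme that drains glutamine carbon from the citric acid cycle toward glucose, read 2559.8, 2393, 2652, 1853 and 1724 CPM in controls and 1048, 481, 431, 672 and 582 CPM in treated libraries (log2 fold change -1.80 ± 0.27 (SE), adjusted p = 0.000103). Even the highest treated library lay below the lowest control. Its mean in untreated oxalate libraries was 1913 ± 637 CPM (SD, n = 5), and alkali-treated libraries were lower (log2 difference -1.57 ± 0.26 (SE), adjusted p = 0.0041). Slc38a3, the glutamine carrier SNAT3 that brings glutamine into proximal cells, read 36.6, 36.8, 60.3, 52.8 and 42.1 CPM and 34, 18, 19.1, 25.2 and 26.3 CPM (log2 fold change -0.90 ± 0.20 (SE), adjusted p = 0.00225). Every treated library lay below every control. Its mean in untreated oxalate libraries was 62 ± 18.3 CPM (SD, n = 5), and with alkali it was lower (log2 difference -1.34 ± 0.21 (SE), adjusted p = 0.0031). Glud1, glutamate dehydrogenase, read 391, 452, 428, 396 and 468 CPM and 373, 279, 259, 285 and 259 CPM (log2 fold change -0.55 ± 0.11 (SE), adjusted p = 0.001). Slc9a3, the apical sodium-proton exchanger NHE3, fell by 0.48 (adjusted p = 0.0112), a call that was lost with total-count scaling (-0.25, adjusted p = 0.0502).

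The sequence before the start of Pck1 is shown because this gene had the largest fall of the list and its promoter is known for a cAMP response element. In the RefSeq window of 250 bases (GRCm38.p6, chr2:173152823-173153072 (plus strand)), in capitals, the letters TTACGTCA occur once, 93 bases before the start; either strand of them is found in 0.449% of all 32544 windows.
Pck1: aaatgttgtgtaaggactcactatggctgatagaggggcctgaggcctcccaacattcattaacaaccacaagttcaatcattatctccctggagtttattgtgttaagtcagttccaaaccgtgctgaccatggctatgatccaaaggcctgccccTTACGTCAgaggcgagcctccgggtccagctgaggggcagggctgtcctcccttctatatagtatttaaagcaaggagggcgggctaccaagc
The count data do not bear on what binds there.

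The genes of this list that rose were Slc38a1, a glutamine carrier of many cell types (3.2, 3.09, 4.31, 3.29 and 2.64 CPM in controls, 5.44, 8.85, 7.07, 7.2 and 11.7 CPM in treated libraries, log2 fold change 1.28), and Slc4a1, the chloride-bicarbonate exchanger AE1 of acid-secreting intercalated cells and red cells. Slc4a1 read 43.8, 44.7, 43.5, 42.2 and 44.4 CPM in controls and 50.4, 73.4, 88, 49.2 and 81.6 CPM in treated libraries (log2 fold change 0.65 ± 0.16 (SE), adjusted p = 0.00372). All treated libraries were higher, treated 2 and 30 by little. In untreated oxalate libraries it averaged 35.6 ± 7.6 CPM (SD, n = 5), and alkali-treated libraries were higher (log2 difference 0.95 ± 0.16 (SE), adjusted p = 0.00424). The globin genes Hbb-bs (-0.73) and Hbb-bt (-0.84) and the red cell heme enzyme Alas2 (-0.83) were not called and had negative estimates. DESeq2 called all 3 lower (adjusted p = 0.0422, 0.0337 and 0.0365), as did the fit without control 9 (-0.89, -1.01 and -0.97). The fit of the 10 libraries called both globins, and Alas2 was also called without control 19 or treated 33. Of 7 red cell genes, 0 were called lower with all libraries, 5 without control 9 and 1 without control 19 or treated 33. Aqp6, a channel of acid-secreting cells, read 38.6, 33.7, 43.6, 40.9 and 41.6 CPM and 45.2, 79.5, 111, 59.3 and 104 CPM (log2 fold change 1.01 ± 0.18 (SE), adjusted p = 0.000346), and against untreated oxalate it was higher too (log2 difference 0.67 ± 0.17 (SE), adjusted p = 0.0347). Foxi1, the master transcription factor of intercalated cells, rose by 0.61 and the receptor Kit by 0.90. The proton pump subunit Atp6v0a4 fell (-0.50). Slc26a4, the exchanger pendrin of base-secreting cells, did not pass (0.22, 95% interval -0.06 to 0.49), but did with total-count scaling (0.47, adjusted p = 0.00308).

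Genes that handle calcium, phosphate, oxalate and citrate were called in both directions at close to the shares of all tested genes, 7 higher of 28 (25%, against 24.6%) and 6 lower (21.4%, against 18.5%; median -0.05, 0.20 with total-count scaling). Mgp, the matrix protein that inhibits calcification, read 54.9, 46.9, 71.1, 53 and 51 CPM and 115, 259.8, 351, 196 and 338 CPM (log2 fold change 2.19 ± 0.27 (SE), adjusted p = 2.9e-05). Trpv6, a calcium channel, rose by 1.58. Grhpr, which removes the oxalate precursor glyoxylate, fell by 0.81. Kl, the FGF23 co-receptor Klotho, read 886, 878, 818, 703 and 907 CPM in controls and 943, 813, 764, 783 and 734 CPM in treated libraries, with overlapping groups (log2 fold change -0.05, 95% interval -0.33 to 0.22). It averaged 536 ± 119.8 CPM (SD, n = 5) in untreated oxalate libraries and was higher with alkali (log2 difference 0.59 ± 0.13 (SE), adjusted p = 0.0176).

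Transcripts of many nuclear genes of mitochondrial metabolism were lower, while 1 of 10 genes of the mitochondrial genome was called. Of 26 genes of pyruvate entry and the citric acid cycle, 24 were lower and 0 higher (median -0.46). With total-count scaling 17 were lower. In 21 all treated libraries lay below all controls, as in 5.92% of all tested genes. Pcx, which makes oxaloacetate from pyruvate, read 953, 814, 774, 934 and 987 CPM and 671, 389, 367, 473 and 273 CPM (log2 fold change -1.04 ± 0.24 (SE), adjusted p = 0.00234). Mpc1, a subunit of the mitochondrial pyruvate carrier, read 126, 132, 129, 136 and 147 CPM and 112, 70.0, 64, 78.8 and 67.2 CPM (log2 fold change -0.77 ± 0.15 (SE), adjusted p = 0.00061). Pdha1 and Dlat, subunits of pyruvate dehydrogenase, fell by 0.59 and 0.47. Of 56 nuclear genes of oxidative phosphorylation, 40 were lower and 0 higher (median -0.39). This count fell to 18 lower and 1 higher with total-count scaling (median -0.16), to 25 without treated 8 and to 26 without control 35. Uqcrfs1, the Rieske protein of complex III, fell by 0.63, Sdhc of complex II by 0.56 and Cox5a of complex IV by 0.48. Of 10 mitochondrially encoded genes, 1 was lower, mt-Nd6 (-0.79), which lies opposite mt-Nd5. mt-Nd4, a subunit of complex I, read 10827, 12849, 10761, 11047 and 12394 CPM and 10381, 8713, 11459.5, 13798 and 9369.8 CPM (log2 fold change -0.11, 95% interval -0.45 to 0.23).

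Of 36 fatty acid oxidation genes, 22 were lower and 1, the fatty acid binding protein Fabp1 (1.99), higher (median -0.47). The call of Fabp1 was lost without treated 8 (1.62, adjusted p = 0.0596). Without control 19 or treated 2, 2 genes of the list were higher. Decr1, which helps to degrade unsaturated fatty acids, read 279.8, 317, 298, 259.6 and 275 CPM and 129.9, 183, 155, 179 and 162 CPM (log2 fold change -0.82 ± 0.14 (SE), adjusted p = 0.000299). The groups were separate, with treated 2 lowest. Echs1, enoyl-CoA hydratase, fell by 0.72 on the log2 scale. Cpt1a, the gate to mitochondrial oxidation, was not called (-0.23, 95% interval -0.48 to 0.01), nor was the coactivator Ppargc1a (-0.20, -0.42 to 0.03). Cpt1a was called lower without treated 2 (-0.34, adjusted p = 0.0119) and with limma's voom. Cyp4a14, a PPAR-alpha target, read 46.9, 23.4, 164, 10.9 and 11.6 CPM and 8.3, 17.5, 20.3, 10.2 and 6.55 CPM (log2 fold change -2.02 ± 0.83 (SE), adjusted p = 0.0555). Control 19 held the highest value, and DESeq2 called the gene lower (-2.04, adjusted p = 0.0255), as did the fits without control 26 (-2.28, adjusted p = 0.0364) or control 35 (-2.28, adjusted p = 0.0401).

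Of 13 gluconeogenesis and fructose genes, 10 were lower, 6 when treated 33, treated 5 or control 35 was left out, and 1, mitochondrial Pck2 (0.36), was higher (median -0.65). Slc37a4, the glucose 6-phosphate carrier, read 338, 313, 276, 281 and 318 CPM and 249, 176, 135, 171 and 128 CPM (log2 fold change -0.83 ± 0.17 (SE), adjusted p = 0.00127). Gk, glycerol kinase, fell by 1.05. Glycolysis genes were mixed, 7 higher of 21 (33.3%, against 24.6% of all tested genes) and 5 lower (23.8%, against 18.5%). The list's median was -0.04 (0.20 with total-count scaling). Those that rose included Hk1, the hexokinase of most cells (0.55), the myeloid hexokinase Hk3 (3.06) and the enolase Eno2 (2.01), and those that fell were Gapdh, Pgk1, Pgam1, Eno1 and Ldha, by 0.28 to 0.56 on the log2 scale. With total-count scaling 2 of these 5 were called lower, and 3 genes of the list were lower without control 35, treated 8 or treated 33. Gapdh was not called without any of these 3 libraries or treated 5 (-0.36 to -0.30), nor Eno1 without control 9, 26 or 35 or treated 8, 30 or 33 (-0.27 to -0.24).

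Amino acid breakdown genes were lower in 23 of 29 cases and higher in 0, 1 without treated 2 (median -0.66). Besides Hpd, Amt of the glycine cleavage system read 87.7, 89.4, 82.4, 87.3 and 95.1 CPM and 72.6, 55.2, 49.6, 47.5 and 46.9 CPM (log2 fold change -0.70 ± 0.12 (SE), adjusted p = 0.000285). Dmgdh, which demethylates dimethylglycine, fell by 1.11 and Afmid, of tryptophan breakdown, by 1.03. Cholesterol synthesis genes were lower in 15 of 24 cases and higher in 0 (median -0.39; 10 lower and 3 higher with total-count scaling, 1 higher without control 19, control 26, treated 5 or treated 30). Hmgcs1, which makes HMG-CoA, read 772, 798, 752, 702 and 714 CPM and 608, 404, 399, 419 and 306 CPM (log2 fold change -0.81 ± 0.16 (SE), adjusted p = 0.000853). Cyp51, lanosterol demethylase, fell by 0.98, Sqle, squalene epoxidase, by 0.71 and Ebp, a sterol isomerase, by 0.66.

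Many antioxidant genes were lower, and few acute stress genes were called. Of 24 oxidative stress response genes, 14 were lower (7 with total-count scaling) and 2 higher, the cystine carrier Slc7a11 (2.25) and the transcription factor Nfe2l2 (0.25). Nfe2l2 was not called without control 26 (0.21, adjusted p = 0.052), in the fit of the 10 libraries (adjusted p = 0.0541) or without the filter on low counts (adjusted p = 0.0738). Prdx6, a peroxiredoxin, read 235, 242, 212, 210.2 and 238 CPM and 189, 149, 123, 130.2 and 125 CPM (log2 fold change -0.67 ± 0.11 (SE), adjusted p = 0.000274). Of 19 integrated stress and chaperone genes 1 was higher (5.3%, against 24.6% of all tested genes) and 0 were lower (0%, against 18.5%). The 1 was Phgdh of serine synthesis (0.52). Without control 26 or treated 2, 2 were higher. The 0 depended on the libraries and the tool: 5 were lower without control 26, 3 without treated 2 and 1 without control 9, control 35 or treated 30, 6 by DESeq2, 5 in the fit of the 10 libraries and 3 with limma's voom. The call of Phgdh was lost without control 9, 13 or 19 or treated 5, 30 or 33 (0.42 to 0.54, adjusted p = 0.111 without treated 33). It was also lost in the fit of the 10 libraries (adjusted p = 0.0538) and without the filter on low counts (adjusted p = 0.0588). Hspa1a, a heat shock protein with a near-identical copy in Hspa1b, read 27.6, 29.1, 127, 21.6 and 40.8 CPM and 9.33, 17.7, 15.7, 21.2 and 6.97 CPM (log2 fold change -1.79 ± 0.72 (SE), adjusted p = 0.0511). Control 19 was the highest library, and Hspa1a was called lower by DESeq2 (-1.81, adjusted p = 0.0245), without control 9 (-1.94, adjusted p = 0.0496) and without control 26 (-1.98, adjusted p = 0.042). It was lower than in untreated oxalate libraries (log2 difference -3.05 ± 0.75 (SE), adjusted p = 0.0284). Of 20 immediate early genes, 2 (10%) were higher, Socs3 and the transcription factor Klf6 (0.67), and 1 (5%) lower, Fosb, an AP-1 subunit. The higher count was 5 without control 19 and 1 without control 9, 13, 26 or 35 or treated 5, 8 or 33. The lower count was 2 without control 26 or control 35 and 0 without control 19 or any 1 treated library. The list's median, -0.19, was 0.64 without control 19 and at most -0.04 without any other single library. Fosb read 1.85, 0.804, 12.6, 0.616 and 0.608 CPM and 0.31, 0.407, 0.678, 0.53 and 0.884 CPM (log2 fold change -2.55, 95% interval -4.64 to -0.46, adjusted p = 0.0461). Control 19 was far above the other controls. Without control 19 Fosb was not called (-0.78, adjusted p = 0.493), nor was it with limma's voom, total-count scaling or no filter on low counts. The 1 call lost in each of the 7 leave-outs that gave 1 higher gene was that of Klf6 (0.57 to 0.66). Klf6 was also not called without the filter on low counts (0.63, adjusted p = 0.0606). Dusp1, a phosphatase induced by stress, was not called (-0.79, 95% interval -1.51 to -0.08, adjusted p = 0.0681), but was without control 26 (-0.91, adjusted p = 0.0471) or control 35 (-0.95, adjusted p = 0.0416) and in the fit of the 10 libraries.

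Of 23 lysosomal genes, 3 were higher (Ctss, Ctsk and Hexa) and 7 lower (median 0.03). The higher share was 13.04%, below the 24.6% of all tested genes, and the lower share was 30.43%, against 18.5%. The count of lower genes fell to 3 with total-count scaling and to 3 or 4 when control 9, 13 or 35 or treated 8 or 33 was left out, and that of higher genes rose to 7 without treated 2 and 12 with total-count scaling. Ctsk, a cathepsin that degrades collagen, read 3.39, 2.33, 2.92, 2.98 and 2.64 CPM and 5.48, 17.7, 27.9, 11.6 and 25.5 CPM (log2 fold change 2.63 ± 0.45 (SE), adjusted p = 0.000347). Of 9 renin-angiotensin genes 4 (44.4%) were lower, against 18.5% of all tested genes. Among them were the peptidases Ace (-1.17), Enpep (-0.32) and Mme (-0.48). Ace, which makes angiotensin II and is abundant on proximal tubules in the mouse, read 384, 362, 299.7, 325 and 399 CPM and 300.4, 103, 126, 178 and 81.1 CPM (log2 fold change -1.17 ± 0.29 (SE), adjusted p = 0.00394). With total-count scaling Enpep (-0.09, adjusted p = 0.353) and Mme (-0.23, adjusted p = 0.234) were not called. Without control 13 or treated 8 neither was called (-0.26 and -0.39 without control 13, -0.29 and -0.41 without treated 8), and 2 genes of the list were lower. Enpep was also not called without treated 33 (-0.25) or in the fit of the 10 libraries, and Mme without treated 30 (-0.38). Ren1, renin, read 99.7, 72, 103, 78.6 and 66.4 CPM and 57.4, 91.2, 153, 101 and 73.9 CPM (log2 fold change 0.18, 95% interval -0.24 to 0.61). Clock genes moved both ways, 4 higher of 16 (25%, against 24.6% of all tested genes) and 6 lower (37.5%, against 18.5%), and 2 were higher without treated 33. Arntl, the clock activator BMAL1, rose by 0.72, as did Npas2 (0.75), Cry1 (0.55) and Bhlhe41 (1.19), while Tef, a clock output factor, fell by 0.92 and the repressor Nr1d2 by 0.50. Without treated 33 neither Cry1 (0.45, adjusted p = 0.0503) nor Npas2 (0.71, adjusted p = 0.0617) was called, and Npas2 was also lost without control 9, control 13, treated 2 or treated 8 (0.64 to 0.72) and with limma's voom. The hour of sampling was not given.

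Few markers of other tissues were called with all 10 libraries. Of 10 urothelial, 6 adipose and adrenal, and 2 skeletal muscle genes 0 passed, and Slc4a1 was the 1 of 7 red cell genes that did. The adipose count depended on the high library of each group: without treated 33, 5 of the 6 adipose and adrenal genes were lower (median -7.88, against -0.58), and without control 26, 1 was higher (median 0.81). Without control 26, 2 urothelial genes were higher (median 1.89, against 0.63), and without treated 33 that median was -0.10. Ucp1, the uncoupling protein of brown fat, read 127 CPM in treated 33 and 0.136 CPM or less in the other treated libraries, and its interval for the log2 fold change ran from -5.51 to 3.04. Upk1b, a plaque protein of the urothelium, read 1.7, 0.212, 0.249, 5.06 and 2.31 CPM in controls and 1.58, 3.72, 0.0521, 1.16 and 15.5 CPM in treated libraries (log2 fold change 1.19, 95% interval -0.84 to 3.21).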

How the data were processed

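RNA-seq of 20 mouse libraries was used as gene counts. Per the submitters' processing notes the authors used bcl2fastq 2.19, Trimmomatic, STAR 2.7.1, featureCounts and edgeR, and per the labels' protocols the libraries were stranded and made from poly(A) RNA. The deposited files hold whole-number counts per gene, with no normalization. The build named in the notes, GRCh38.p5, is human while the gene identifiers are mouse, so which mouse build was used is not known here. The strand setting of counting is not given in the sources used here, so genes that overlap on opposite strands are uncertain: of the named genes, Alas2, Bhlhe41, Csf1r, Cxcl16, Cyp51, Dusp1, Echs1, Foxp3, Gapdh, Hebp1, Hexa, Hk3, Hspa1a, Mmp12, Pdha1, Slc34a1, Slc5a2, Slc6a20a and mt-Nd6, besides Afmid, Atp6v0a4, Cfb, Gata3, Nat8f5, Spp1 and mt-Nd4, which overlap a gene of the same strand. Symbols came from GENCODE M21, which matched 25587 of 25700 identifiers; the 113 others held at most 0.0541% of a library's counts. Promoter windows came from RefSeq (GRCm38.p6), with 4 of the 13 MHC class II list genes (H2-Ab1, Cd74, Ciita and Cd86) unmatched.

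Genes were filtered with filterByExpr (minimum count 10), which removed 10270 and left 15430, and scaled by TMM. A single edgeR 4.0.16 quasi-likelihood model (R 4.3.3) of the 4 groups was fitted to all 20 libraries, which share the estimate of the spread, and p-values were adjusted by Benjamini-Hochberg over all tested genes. DESeq2 1.42.0, limma 3.58.1 voom, other scalings, no filter, a fit of 10 libraries and each library left out were alternatives. The code was tested on simulated data. Total counts of 25547840 to 39550689 per library leave genes of a few counts imprecise; ratios of summed counts carry exact 95% intervals for counting error only.

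The comparison, gene lists and named genes were chosen with earlier results of these data known. The genes named were up to 12 in each direction with the largest change among called genes with an average of at least 1 log2 CPM, separate groups and a symbol that is not that of a predicted gene, up to 6 in each direction with the smallest p, a panel of 38, and up to 4 members of each of 43 lists with the smallest p. Csf1r, Cd163, Nlrc4, Cfb, Cd55, C8g, Fabp1, Pck2, Gapdh, Pgk1, Eno1, Ldha, Nfe2l2, Tyms, Kcnj1, Egf, Atp6v0a4, Npas2, Cry1, Fmo5, H2-Aa, H2-Ob and Grhpr were named outside this rule, after their values were seen. A few genes that the rule selects are not reported here.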

Additional observations from a re-analysis of the deposited data

Results flagged for a closer look

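In 24 of 422 groups of 5 libraries (211 genes in both groups) 1 library stood apart from the other 4 of its group: on the log2 scale its gap to the nearest of them, over the whole range, was above Dixon's 95% critical value of 0.71 for 5 samples. For independent normal values chance gives this in about 1 in 20 groups, close to the share seen. The genes share the same 10 libraries, and many were chosen by their difference between the groups. The rate therefore cannot decide which of the 24 are due to chance, and they are given as values only.

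Treated 2 accounted for 9 of them. It was high for the water channel Aqp1 (874 CPM, the others 489 to 548) and for glutamate dehydrogenase Glud1 (373 CPM, the others 259 to 285). It was low for Cd4 (0.999 CPM, the others 4.89 to 5.89), Cd3e (0.723 CPM), Timp1 (2.17 CPM), Trpv6 (2.1 CPM), Bsnd (51.4 CPM), Klf6 (45.2 CPM) and Ptpro (20 CPM). In all 9 its value lay on the side of the control mean. Treated 33 was low for Slc5a2 (364 CPM, the others 479 to 530) and high for the brown fat gene Ucp1 (127 CPM, the others at most 0.136). Treated 30 was low for the clock gene Arntl (12.2 CPM, the others 18.3 to 20.7).

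Among controls, control 26 was high for Ucp1 (297 CPM, the others at most 0.162) and C3 (54.4 CPM, the others 15.6 to 19.5) and low for Slc13a3 (774 CPM). Control 19 was high for Ccl2 (3.78 CPM), Fcgr1 (1.82 CPM) and the heat shock gene Hspa1b (165 CPM). Control 13 was low for Aqp2 (57.8 CPM, the others 119 to 151) and high for Ptpro (20.7 CPM), Ppargc1a (98.4 CPM) and Pou2af1 (0.127 CPM, a few counts). Control 35 was high for Top2a (6.37 CPM) and Scnn1g (50.2 CPM).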

How the results depend on the processing

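Of 3371 values of the 211 named genes under alternatives, 3245 kept their direction and side of the threshold, 87 lost a call, 38 gained 1 and 1 reversed: the log2 fold change of Ucp1, -1.23, was 8.67 without control 26 and ranged from -9.21 to 8.67 as single libraries were left out. In 178 genes no alternative changed direction or call. These values are of treated oxalate against untreated control. Calls of single genes against untreated oxalate were not followed under the alternatives. Of 1376 values of the 86 counts of list members higher or lower, 1225 stayed within 1.5 times and 151 did not. The numbers of genes higher and lower (3802 and 2849) were 6679 and 1048 with total-count scaling and 1201 and 59 against a minimum of 1.5-fold. They were 2949 and 2493 in a fit of the 10 libraries compared, and ran from 3141 to 4390 and from 1994 to 3691 with 1 library left out. The 130 genes at least 2-fold lower became 280 with limma's voom, 61 with total-count scaling and 91 to 347 with 1 library left out, the highest without treated 2. Against untreated oxalate, the 271 higher and 359 lower genes became 486 and 717 with DESeq2, 15 and 14 in a fit of those 10 libraries and 2 and 2 against 1.5-fold; without a filter 218 were lower. They ran from 93 (without untreated oxalate 12) to 442 (without untreated oxalate 32) and from 92 (without untreated oxalate 12 or treated 30) to 718 (without untreated oxalate 32). Leaving out treated 8 gave 169 and 210, treated 33 gave 411 and 563, untreated oxalate 3 gave 167 and 182, and untreated oxalate 40 gave 211 lower. For alkali in controls, the 0 genes higher became 3 with DESeq2 and 0 to 1 with 1 library left out (1 without control with alkali 1, or without control 9). The cause of these shifts was not tested. No paired analysis was possible because the groups share no replicate numbers. Genes with fewer than about 10 counts over the controls have folds that depend on the prior count.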
